A study of Mus musculus with 18 samples.

Results

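Obstructed kidneys of mice that lacked Myc in the tubule were compared with obstructed kidneys of mice that lacked Twist in the endothelium. The 2 groups were chosen by their sample labels, and they hold 6 of the 18 kidneys of the series, 3 in each group. Both sets of kidneys had unilateral ureteral obstruction (UUO), in which one ureter is tied off and the kidney above it becomes injured and fibrotic. The Myc knockout mice carried GGT-Cre and 2 floxed Myc alleles (Cre-positive, FF), had a mixed background (C57BL6, Balb/c), and were 11 to 12 weeks old at the endpoint. The Twist knockout mice carried Cdh5-CreERT2 and 2 floxed Twist alleles (Cre-positive, FF), had a background of C57BL6, 129sv with Balb/c, and were 12 weeks old. GGT-Cre is driven by a promoter of the proximal tubule, and Cdh5-CreERT2 is a Cre that tamoxifen switches on in endothelial cells. Each knockout is therefore conditional (cKO) and is meant to spare the other cells of the kidney, which was not tested here. RNA came from a piece of whole kidney, which holds every cell type. Strain mix, Cre driver and deleted gene all differ between the groups, so their contributions to a difference cannot be told apart. The other 12 kidneys were healthy, contralateral to an obstruction, obstructed without a knockout (WT UUO) or obstructed with an endothelial Snail knockout, 3 of each, and they entered the fit and served as a reference for levels.

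Twist1 encodes a basic helix-loop-helix transcription factor that drives the change of endothelial and epithelial cells toward a mesenchymal state. Myc encodes a transcription factor of the same structural family that pairs with Max, binds the DNA letters CACGTG and raises genes of ribosome production, nucleotide synthesis and glycolysis. The series asks how the endothelial transition to mesenchymal cells bears on oxygen supply, tubular metabolism and Myc in the fibrotic kidney, and this pair of groups sets a deletion in the tubule beside a deletion in the vessel wall.

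Total counts were 56.7 to 72.2 M in the Myc cKO libraries and 52.6 to 73.9 M in the Twist cKO libraries. Ribosomal RNA of the mitochondria made up 25.4, 32.1 and 34.9% of the counts in Myc cKO replicates 1 to 3. In Twist cKO replicates 1 to 3 it made up 26.2, 29.9 and 24.1%. Myc cKO replicate 3 stood apart within its group. Its summed level of the 20 proximal tubule metabolism genes was 5833 CPM (reads per M after TMM normalisation), against 2596 and 2930 in replicates 1 and 2. The 13 mitochondrially encoded mRNAs summed to 24830 CPM there, against 12770 and 16870. Ddx3y, a gene of the Y chromosome, had more reads than Xist, the RNA of the silent X chromosome of females, in Myc cKO replicates 1 and 3 and in Twist cKO replicate 2. Sex was therefore not balanced between the groups. The labelled tissue was present in every library: proximal tubule transport genes summed to between 4521 and 8780 CPM over the 6 kidneys.

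The targeted genes were read first. Twist1 had 0.971, 1.22 and 0.851 CPM in the 3 Myc cKO kidneys and 0.378, 0.596 and 0.307 CPM in the 3 Twist cKO kidneys, so every Twist cKO kidney lay below every Myc cKO kidney. The log2 difference (Myc cKO minus Twist cKO) was 1.24 ± 0.48 (SE), which was not past the threshold of 0.05 (edgeR adjusted p = 0.181). Myc had 18.8, 19.8 and 10.8 CPM in the Myc cKO kidneys and 19.6, 17.9 and 29.2 CPM in the Twist cKO kidneys. These ranges overlapped, and the difference of -0.43 ± 0.23 was not past the threshold (adjusted p = 0.365). In whole-kidney RNA, fewer cells of a type and less RNA per cell cannot be told apart, and transcripts of cells that the Cre does not reach are counted with those that it does. Snai1, the gene of Snail, was targeted in neither line and differed by -0.60 ± 0.38 (adjusted p = 0.456).

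The genes called lower in Myc cKO kidneys included Greb1, the Wnt receptor genes Fzd7 and Fzd8, and the endothelial receptor genes Ephb4 and Eng. Several genes of the Trim and very large GTPase families were also called lower. Those called higher included the phosphatase gene Acp1, the synaptotagmin gene Syt14 and the pseudogene Zfp125. In a fit of the 6 compared libraries alone, Greb1, Fzd7, Fzd8, Ephb4, Eng, Acp1 and Syt14 were not called (edgeR adjusted p from 0.0502 to 0.0552). Trim5 and Zfp125 were still called there (0.0188 and 0.0243). In all, edgeR's quasi-likelihood test called 630 of 21050 genes, which is 2.99% of the genes tested. Of these, 93 were higher in Myc cKO kidneys (0.442%) and 537 were lower (2.55%). Upper-quartile scaling shifted that split to 178 higher and 360 lower. The 3 and 3 libraries did not overlap in 629 of the 630, and over all genes tested 22.5% did not overlap in one direction or the other. Most differences were small: 62 of the 630 reached 2-fold, 31 in each direction, and 506 of the 537 lower genes stayed under 2-fold. Leaving out 1 library at a time left 194 to 515 calls. The lowest of these counts came without Twist cKO replicate 3, followed by 234 without Twist cKO replicate 2, 285 without Twist cKO replicate 1 and 286 without Myc cKO replicate 2. Without Myc cKO replicate 3, the kidney that stood apart, 515 were called, and 356 of them were among the 630. All 6 of these fits called the same 138 genes, 12 higher and 126 lower.

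**Figure D1:**
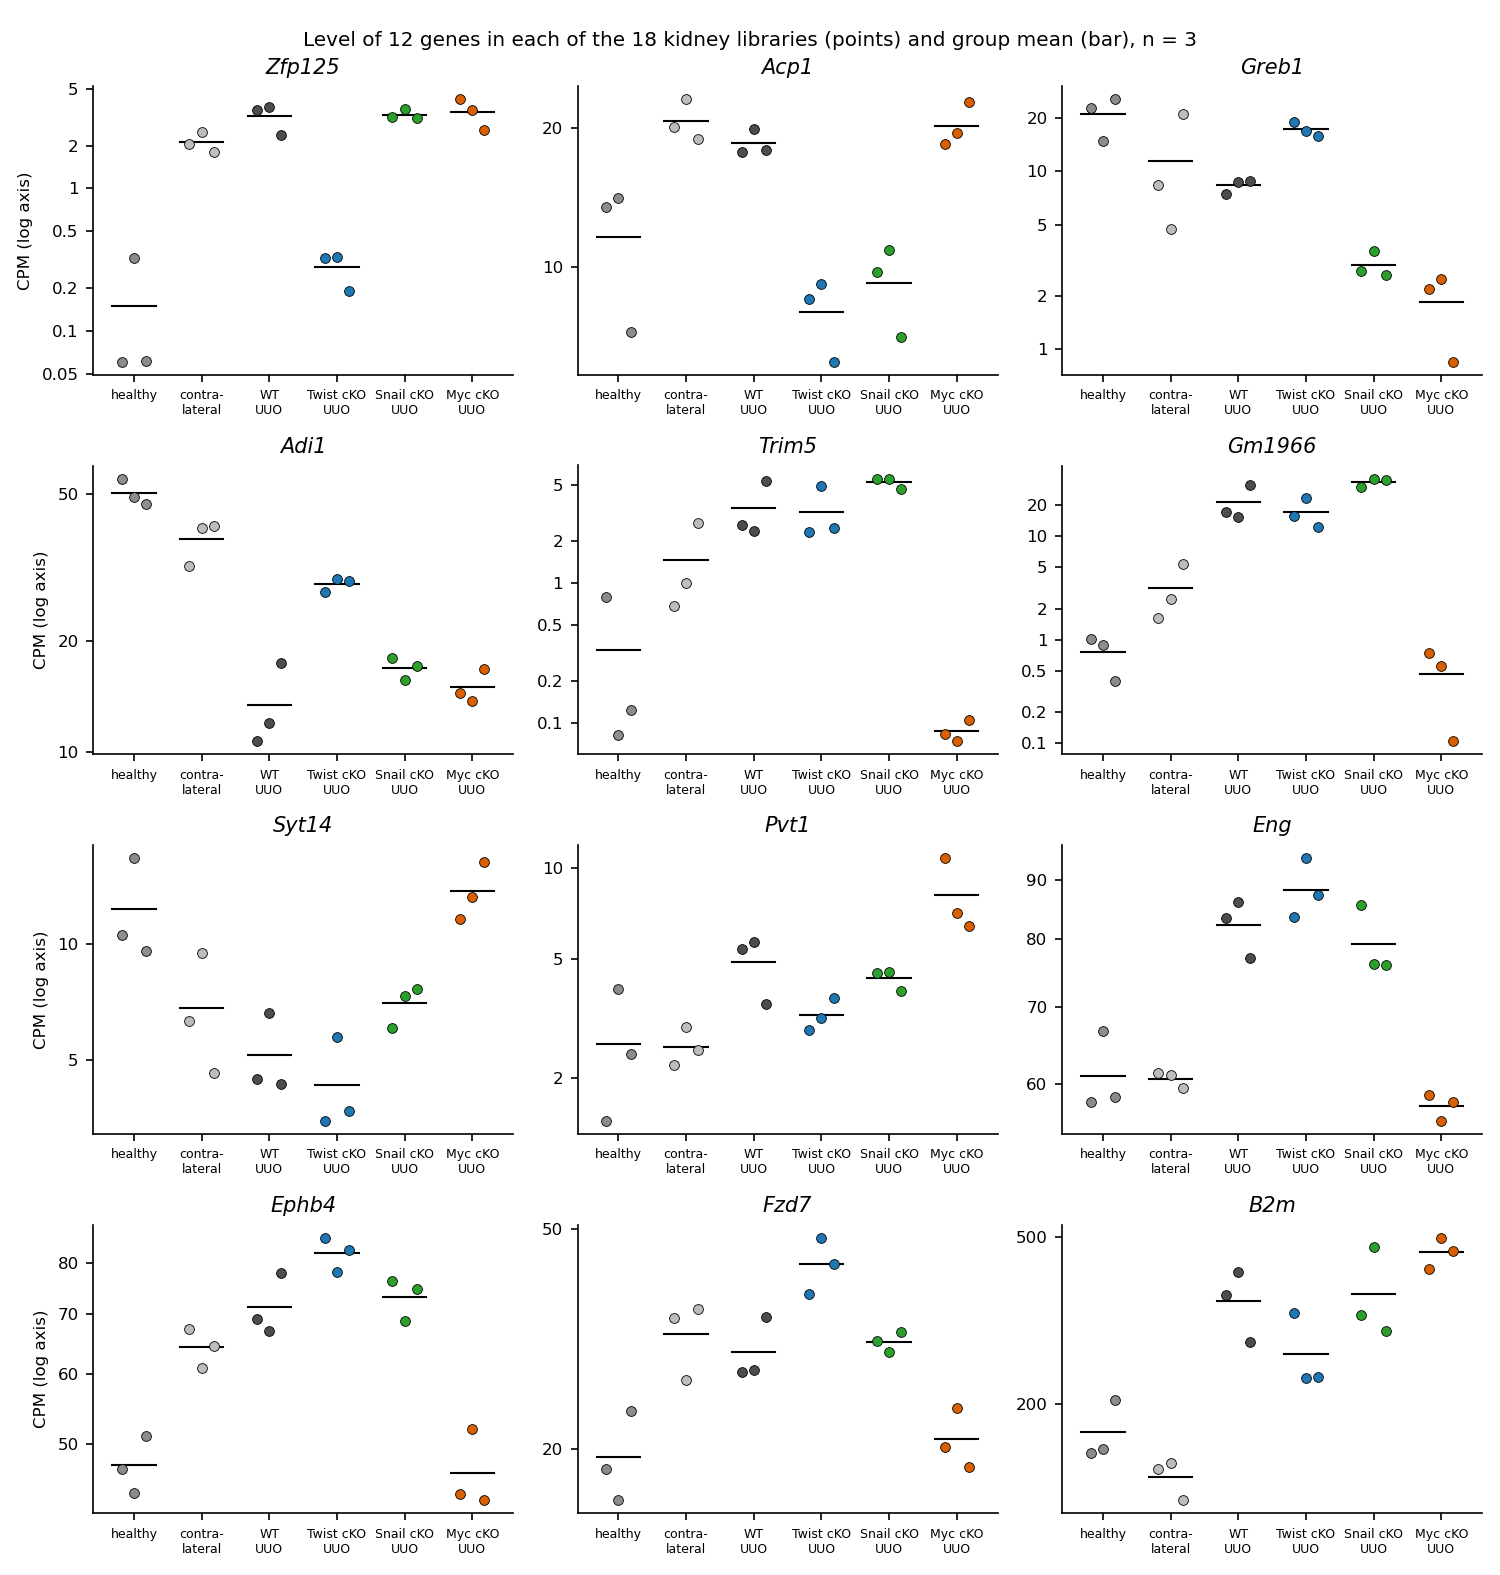
Level (CPM, log axis) of 12 genes in each of the 18 libraries, by group on the x axis, with points for libraries and a bar for the mean of 3. Zfp125 and Acp1 were low in the Twist cKO kidneys, Trim5 and Gm1966 were lowest among the obstructed kidneys in the Myc cKO group, and the Myc cKO kidneys lay beside the healthy ones for Eng, Ephb4 and Fzd7.

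What the called genes shared most plainly was base composition. The 537 genes lower in Myc cKO kidneys had a median GC content (the share of G and C bases in their transcripts) of 58.16%, the 93 higher genes had 44.01%, and all genes tested had 50.21%. Of the lower genes, 513 lay above that overall median, and of the higher genes 13 did. The lower genes also had longer transcripts, with a median of 3158.5 bases against 1746 for genes that were not called. The coding starts of 4 protein-coding genes from the largest differences show the contrast. Fam171a2 and Il3ra have the highest GC content among the 12 largest falls, and B2m and Trim12c the lowest among the 12 largest rises, of those whose sequence could be shown. The first 90 coding bases are given from the mm10 transcripts of GENCODE M21, with G and C in capitals.
Fam171a2 (lower): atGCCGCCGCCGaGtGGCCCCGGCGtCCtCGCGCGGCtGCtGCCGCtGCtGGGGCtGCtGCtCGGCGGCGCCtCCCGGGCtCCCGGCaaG
Il3ra (lower): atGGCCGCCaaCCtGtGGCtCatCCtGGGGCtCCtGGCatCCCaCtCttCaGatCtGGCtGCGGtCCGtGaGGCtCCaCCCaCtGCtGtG
B2m (higher): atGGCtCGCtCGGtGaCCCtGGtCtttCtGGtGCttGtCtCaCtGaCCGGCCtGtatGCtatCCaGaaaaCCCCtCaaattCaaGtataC
Trim12c (higher): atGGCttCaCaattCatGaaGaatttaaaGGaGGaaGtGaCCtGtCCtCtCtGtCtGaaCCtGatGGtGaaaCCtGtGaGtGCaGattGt
Of these 90 bases, 73 are G or C in Fam171a2 and 58 in Il3ra, against 46 in B2m and 39 in Trim12c. Over the whole transcript the GC content is 66.8% for Fam171a2, 65.7% for Il3ra, 41.2% for B2m and 42.5% for Trim12c.

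When all tested genes were divided into 10 classes of equal size by GC content, the median log2 difference between Myc and Twist cKO kidneys went from 0.185 in the lowest class to -0.318 in the highest. The lowest class held 29 higher and 5 lower calls. The highest class held 0 higher and 272 lower calls, which is 13.2% of its genes. The trend belonged to whole libraries. Regressed on GC content, log2 levels relative to the mean of all libraries had slopes of -0.151, -0.190 and -0.123 per 10 points of GC in the 3 Myc cKO libraries and 0.157, 0.0998 and 0.126 in the 3 Twist cKO libraries. Among the other libraries, the healthy ones were also negative (-0.304 to -0.132), and the WT UUO, contralateral and Snail cKO libraries were positive (0.0364 to 0.144). The labels name no batch, and what set these slopes was not tested. Gm26917, an annotated non-coding gene at chr17:39843013-39846341 beside a ribosomal RNA pseudogene, moved with the slopes. Its transcript GC content is 70.7%, in the highest class, so its level is not independent of the slopes. It had 180, 177 and 154 CPM in Myc cKO kidneys and 884, 739 and 1092 CPM in Twist cKO kidneys. In healthy kidneys it had 178 to 410 CPM, and in WT UUO, contralateral and Snail cKO kidneys 552 to 986 CPM.

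**Figure D2:**
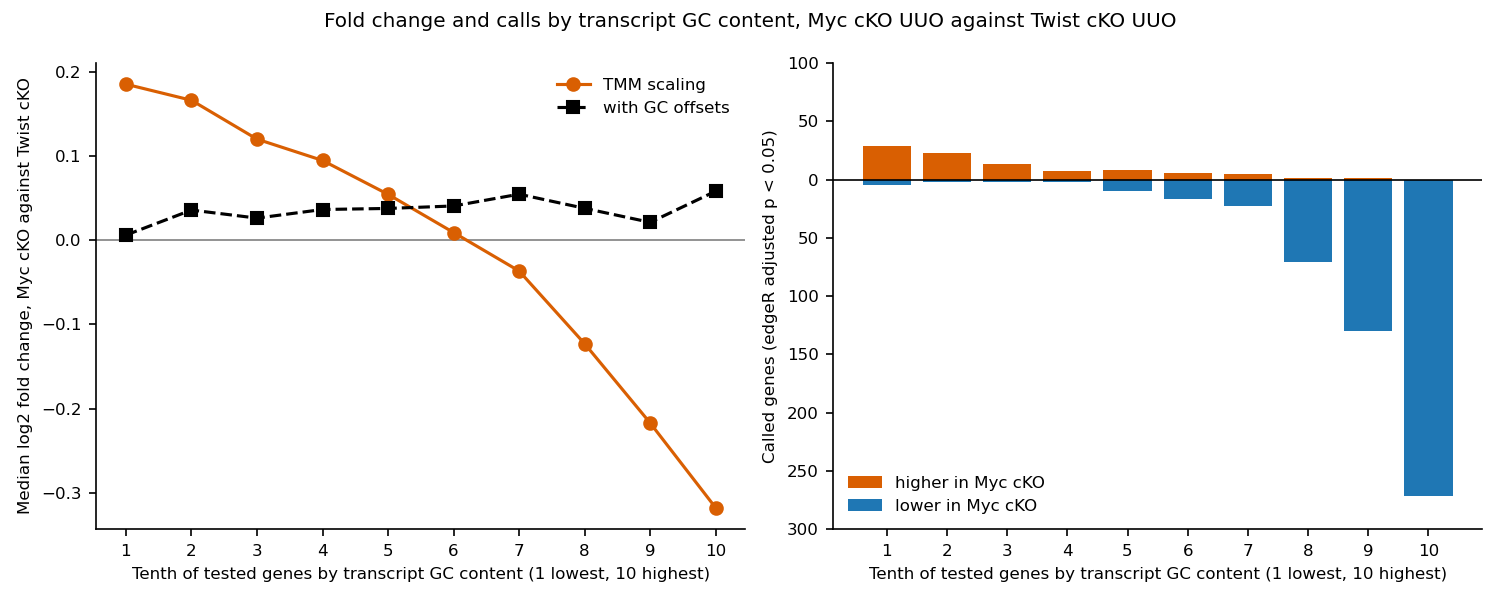
Left, median log2 difference (Myc cKO minus Twist cKO) in 10 classes of genes by transcript GC content, with TMM normalisation (orange) and with GC offsets (black). Right, number of called genes higher (up) or lower (down) in each class. The orange line runs from 0.185 to -0.318, and 272 of the lower calls are in the highest class.

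**Figure D3:**
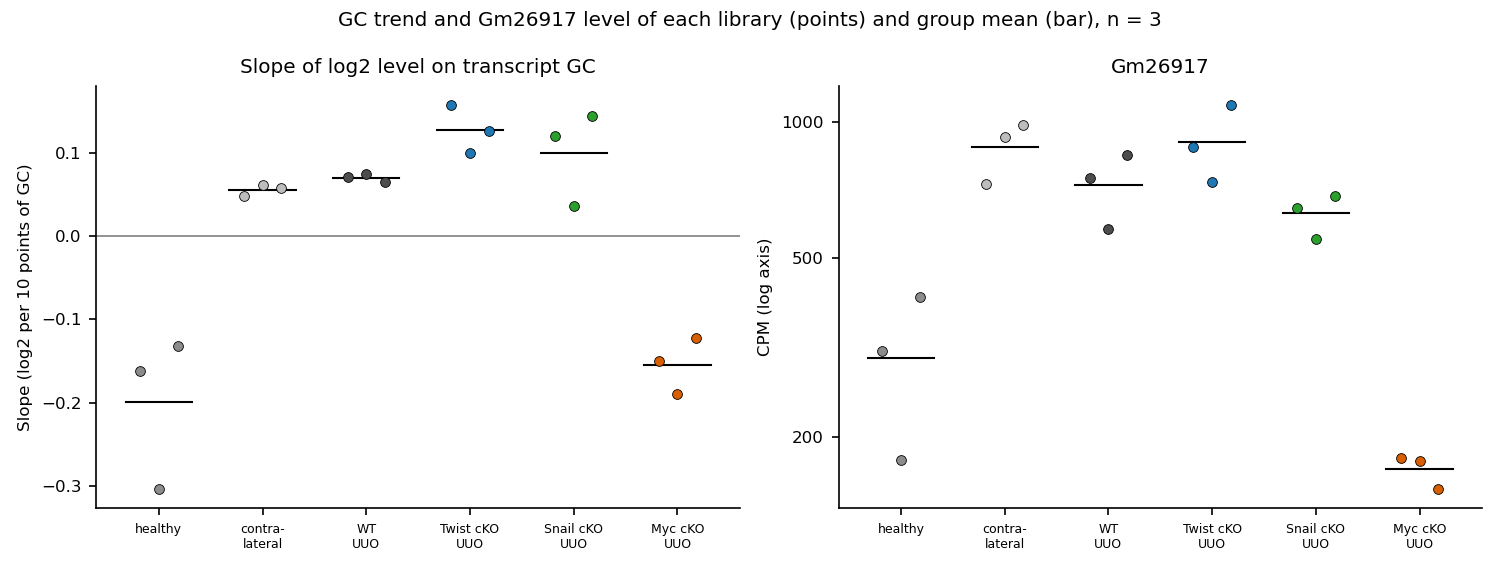
Left, slope of each library's log2 level on transcript GC content (log2 per 10 points). Right, level of Gm26917 (CPM, log axis). Points are libraries and bars are means of 3. The Myc cKO and healthy libraries lie below 0 on the left and lowest on the right.

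To see what remained without this trend, each library's own curve on GC content was removed as an offset in the same edgeR fit, a step chosen after the trend was seen. It called 20 of 21050 genes (0.0950%), 9 higher in Myc cKO kidneys (0.0428%) and 11 lower (0.0523%), with 2364 genes at an unadjusted p under 0.05. DESeq2 and limma voom without the offsets called 1624 and 780. Of the 20, 19 were among the 630 in the same direction. The genes of the 630 mostly shrank and did not turn: 623 kept their sign, 456 stayed at an unadjusted p under 0.05, and the median of the lower genes went from -0.56 to -0.29. The median of the higher genes went from 0.49 to 0.43. In what follows, where 2 adjusted p stand together, the second is that under the GC offsets. With the offsets and 1 library left out, 4 to 12 genes were called, and 3110053B16Rik, Zfp125, Gm1966 and Gm26917 were called in all 6 such fits. The other 16 lost the call in at least 1 of them.

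Among the 20 genes called with the GC offsets, 5 encode well-studied proteins away from chromosomes 7 and 12. Fzd7, a receptor for Wnt ligands at chr1:59482424-59486955, had 20.2, 23.7 and 18.5 CPM in Myc cKO kidneys and 38.1, 48.3 and 43.3 CPM in Twist cKO kidneys. All 3 Myc cKO kidneys lay below every Twist cKO kidney, and the log2 difference was -1.06 ± 0.15 (adjusted p = 0.00423, and 0.0427 with GC offsets). Fzd8, a second Wnt receptor, had 8.21, 9.43 and 8.13 CPM against 16.1, 16.5 and 14.5 CPM, again without overlap (-0.87 ± 0.14, adjusted p = 0.00580 and 0.0395). Healthy kidneys had 16.1 to 23.4 CPM of Fzd7 and 5.22 to 6.22 CPM of Fzd8. Ephb4, an ephrin receptor of venous endothelium, had 44.0, 52.0 and 43.2 CPM in Myc cKO kidneys and 85.3, 78.0 and 82.6 CPM in Twist cKO kidneys (-0.82 ± 0.09, adjusted p = 0.00117). With the offsets the Ephb4 difference was -0.53 ± 0.09 (adjusted p = 0.0311). Usp22, the deubiquitinase of the SAGA coactivator complex, had 58.1, 59.2 and 54.2 CPM against 74.9, 81.0 and 84.3 CPM (-0.49 ± 0.08, adjusted p = 0.00516 and 0.0427). The other obstructed kidneys stayed near the Twist cKO level for Usp22, at 73.4 to 81.2 CPM in WT UUO and 74.4 to 81.0 CPM in Snail cKO kidneys. Akap8, a nuclear anchor of protein kinase A, was called with the offsets and not without them: its levels overlapped (64.7, 64.8 and 76.3 CPM against 68.1, 60.2 and 62.0 CPM), and its log2 difference was 0.11 ± 0.07 without and 0.43 ± 0.07 with the offsets. With the offsets and 1 library left out, Fzd7, Fzd8, Usp22 and Akap8 were called in 0 of 6 fits and Ephb4 in 1. The lowest adjusted p in those fits was 0.0621 for Fzd7, 0.0655 for Fzd8, 0.0696 for Usp22 and 0.0682 for Akap8, and the highest for Ephb4 was 0.117. Without the offsets, Fzd7, Fzd8, Usp22 and Ephb4 were called in all 6.

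The other genes of the 20 outside chromosomes 7 and 12 were non-coding, pseudogenes or on an unplaced scaffold. Eif3s6-ps2, a processed pseudogene, had 188, 99 and 161 reads in Myc cKO kidneys and 0, 1 and 1 in Twist cKO kidneys. It was also near 0 in every other group, from 0 to 0.124 CPM, so the Myc cKO kidneys were the ones that differed. Scaled for depth, its summed reads were 231 times as many in Myc cKO kidneys, with a 95% exact binomial interval of 63.55 to 1912 that covers counting error only. Its adjusted p was 0.00423, and 0.0191 with the offsets. Gm10516, an antisense gene, had 3.08, 3.41 and 4.54 CPM in Myc cKO kidneys and 1.56, 2.02 and 1.52 CPM in Twist cKO kidneys (1.11 ± 0.18, adjusted p = 0.00585 and 0.0295). The strand setting of the counting is not given in the sources used here, so its reads may include those of the gene on the opposite strand. Gm26917 differed by -2.41 ± 0.25 (adjusted p = 0.00117) and by -1.70 ± 0.19 with the offsets (adjusted p = 0.00171). CAAA01147332.1, a predicted coding gene on an unplaced scaffold with no GC value, differed by -0.83 ± 0.11 (adjusted p = 0.00321 and 0.00696).

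Of the 20 genes called with the GC offsets, 8 lie on chromosome 12 near Twist1. Within 20 Mb of Twist1, 12 of 143 genes tested were called (8.39%, against 2.99% of all genes tested), 10 of them higher in Myc cKO kidneys, and 9 reached 2-fold. With the GC offsets 8 of the 12 were still called (5.59% of the 143, against 0.0950%). Within 10 Mb, 3 of 79 were called (3.8%, against 2.99% of all genes tested), and 2 with the GC offsets (2.53%, against 0.0950%). Without the offsets, the higher share of calls thus lay mostly 10 to 20 Mb from Twist1. Zfp125, an annotated pseudogene of a zinc finger gene at chr12:20877084-20921262, had 4.23, 3.56 and 2.55 CPM in Myc cKO kidneys and 0.326, 0.329 and 0.190 CPM in Twist cKO kidneys. The groups did not overlap, and the log2 difference was 3.60 ± 0.44 (adjusted p = 0.00167, and 0.00335 with GC offsets). The 3 healthy kidneys, which came from Cre-negative mice with 2 floxed Twist alleles, were as low as the Twist cKO kidneys, at 0.0610, 0.328 and 0.0620 CPM. Snail cKO kidneys had 3.11 to 3.59 CPM. In the WT UUO group the 2 Cre-positive mice without floxed alleles had 3.57 and 3.73 CPM and the Cre-negative mouse with floxed Twist alleles had 2.36 CPM. 3110053B16Rik (3.87 ± 0.42, adjusted p = 0.00117 and 0.00171) and Gm10478 (3.49 ± 0.55, adjusted p = 0.00570 and 0.0311) overlap Zfp125, so these 3 may share reads and are uncertain as separate genes. At some distance from them, 1700030C10Rik had 27, 60 and 19 reads in Myc cKO kidneys and 1, 0 and 1 in Twist cKO kidneys, and Gm4804 had 47, 62 and 16 against 0, 5 and 3. Their adjusted p were 0.00749 and 0.0395 for 1700030C10Rik and 0.00585 and 0.0320 for Gm4804.

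Coding genes of the same region differed in both directions. Greb1, known as an oestrogen-induced gene, at chr12:16670615-16800886, had 2.18, 2.47 and 0.851 CPM in Myc cKO kidneys and 18.9, 16.8 and 15.7 CPM in Twist cKO kidneys. The log2 difference was -3.22 ± 0.47 (adjusted p = 0.00426, and 0.0293 with GC offsets), and every Twist cKO kidney was above every Myc cKO kidney. Snail cKO kidneys were as low as Myc cKO kidneys (2.60 to 3.58 CPM), WT UUO kidneys lay between (7.48 to 8.83 CPM) and healthy kidneys were high (14.8 to 25.4 CPM). Acp1, a small protein tyrosine phosphatase at chr12:30893326-30911589, had 18.5, 19.5 and 22.8 CPM in Myc cKO kidneys and 8.54, 9.20 and 6.25 CPM in Twist cKO kidneys (1.34 ± 0.22, adjusted p = 0.00614 and 0.0395). Here the Snail cKO kidneys (7.07 to 10.9 CPM) were beside the Twist cKO kidneys and the WT UUO kidneys (17.7 to 19.95 CPM) beside the Myc cKO kidneys. Adi1, an enzyme of the methionine salvage pathway, had 14.5, 13.8 and 16.8 CPM in Myc cKO kidneys and 27.2, 29.5 and 29.0 CPM in Twist cKO kidneys (-0.93 ± 0.15, adjusted p = 0.00603 and 0.0191). Greb1, Acp1, Adi1 and Zfp125 were called in all 6 fits without 1 library. With the offsets as well, Zfp125 was called in all 6, Adi1 in 1 (adjusted p up to 0.1003) and Greb1 and Acp1 in 0 (0.0643 to 0.1003 and 0.0848 to 0.197). Other called genes of the region lost the call with the offsets. G2e3, a ubiquitin ligase gene, had 35.9, 35.7 and 35.1 CPM against 25.5, 24.0 and 24.4 CPM (0.53 ± 0.10, adjusted p = 0.00981 and 0.265). The pseudogene Gm6969 differed by 2.14 ± 0.40 (adjusted p = 0.0111 and 0.0525) and lost the call without Twist cKO replicate 1 or 3 (up to 0.0551, without replicate 3). The Twist line alone carries 129sv, so this comparison cannot tell strain differences linked to Twist1 from effects of the deletion at these genes. Zfp125 was also low in the healthy kidneys described above, which were Cre-negative, and Acp1 was low in the Snail cKO kidneys. What set these levels was not tested.

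**Figure D4:**
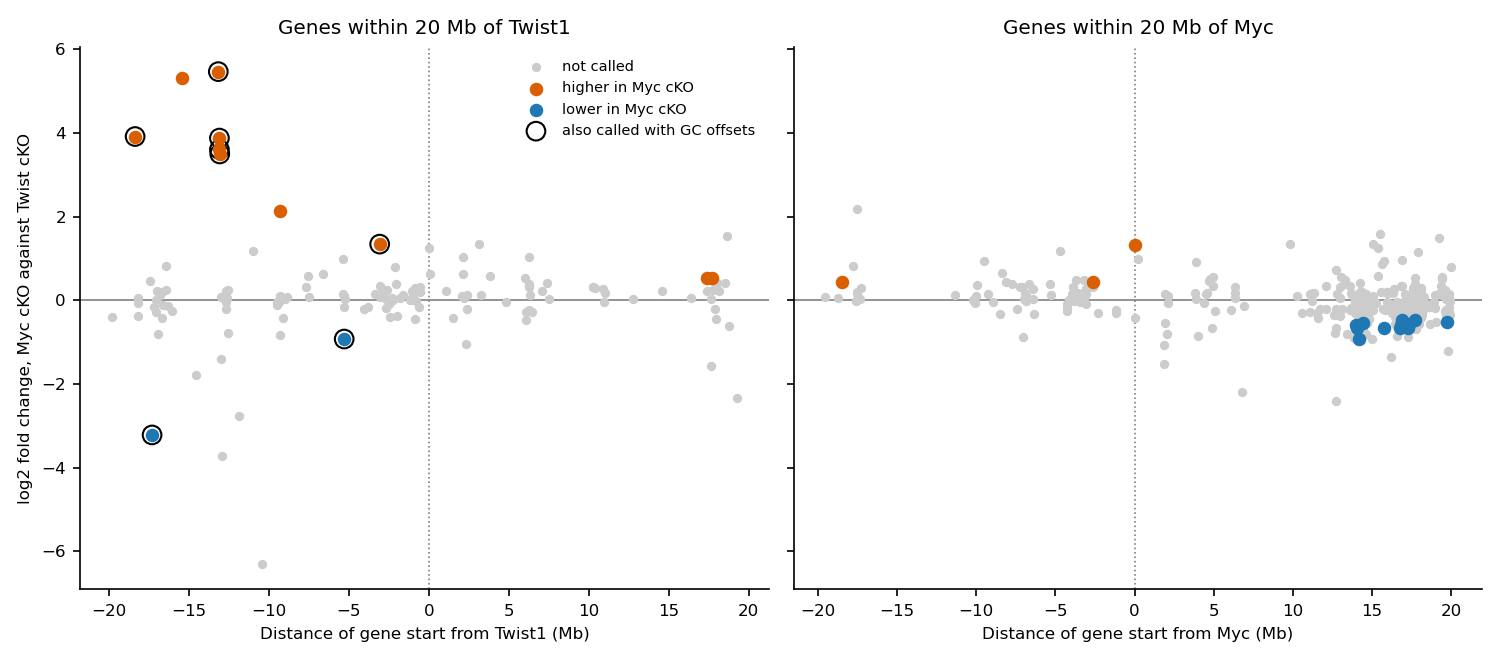
Log2 difference (Myc cKO minus Twist cKO) of each tested gene against the distance of its start from that of Twist1 (left) or Myc (right), in Mb. Orange and blue points were called higher and lower, grey points were not called, and rings mark genes also called with GC offsets: 8 near Twist1 and 0 near Myc.

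A stretch of chromosome 7 held the deepest deficits of the Myc cKO kidneys. It contains members of the Trim family, which includes restriction factors against retroviruses, and of the very large interferon-inducible GTPase family. Trim5, at chr7:104263386-104288094, had 0.0832, 0.0737 and 0.104 CPM in Myc cKO kidneys and 2.32, 4.97 and 2.47 CPM in Twist cKO kidneys (-5.20 ± 0.79, adjusted p = 0.00516, and 0.0191 with GC offsets). Every obstructed kidney of the other 3 groups had at least 2.32 CPM, with Snail cKO kidneys at 4.70 to 5.59 CPM. Trim12a had 3, 2 and 0 reads in Myc cKO kidneys and 648, 1287 and 586 in Twist cKO kidneys. Scaled for depth, its reads were 489 times as many in Twist cKO kidneys (95% exact binomial interval 209.3 to 1508, counting error only); its adjusted p was 0.0107, 0.0525 with GC offsets and 0.0521 without Myc cKO replicate 2. Gvin1, a very large GTPase, had 2, 8 and 1 reads against 201, 444 and 120 (adjusted p = 0.0115 and 0.0525). The related pseudogene Gm1966 had 0.749, 0.553 and 0.104 CPM against 15.7, 23.6 and 12.2 CPM (-5.18 ± 0.60, adjusted p = 0.00142 and 0.00171). Gm21884 had 1, 4 and 1 reads against 39, 120 and 44 (adjusted p = 0.00423 and 0.0124). Trim30d was also lower (-2.05 ± 0.46, adjusted p = 0.0260 and 0.0960), and its call was lost without Twist cKO replicate 1 or 2 or Myc cKO replicate 2 or 3 (up to 0.103, without Twist cKO replicate 2).

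In the same stretch Trim12c went the other way, with 29.7, 31.4 and 24.2 CPM in Myc cKO kidneys and 19.95, 13.4 and 16.5 CPM in Twist cKO kidneys (0.77 ± 0.19, adjusted p = 0.0408 and 0.251). Its call was lost without Twist cKO replicate 2 or 3 or Myc cKO replicate 1 or 2 (up to 0.157, without Twist cKO replicate 2). In a window of 2.5 Mb on either side of Trim5, set after these values were seen, 11 of 64 genes tested were called (17.2%, against 2.99% of all genes tested), 9 of them lower, and 3 were called with the GC offsets. With the offsets and 1 library left out, Gm1966 was called in 6 of 6 fits, Gm21884 in 4 and Trim5 in 2. Trim5, Trim12a, Trim12c and Trim30d are close copies of one another, as are Gvin1, Gm1966 and Gm21884, and how reads were divided among copies is not given in the sources used here. Healthy kidneys were low as well for several of them: Trim5 had 0.793, 0.0819 and 0.124 CPM and Gvin1 0.814, 0.0205 and 0 CPM there.

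Around Myc itself, on chromosome 15, 15 of 313 genes within 20 Mb were called (4.79%, against 2.99% of all genes tested) and 0 with the GC offsets (against 0.0950%). Pvt1, a long non-coding RNA gene that starts 0.0526 Mb after the start of Myc, was the one called gene there that reached 2-fold. It had 10.8, 7.12 and 6.43 CPM in Myc cKO kidneys and 2.90, 3.18 and 3.71 CPM in Twist cKO kidneys, without overlap. WT UUO kidneys had 3.54 to 5.69 CPM and Snail cKO kidneys 3.92 to 4.52 CPM, so the Myc cKO kidneys were above every other obstructed kidney. The log2 difference was 1.32 ± 0.30 (adjusted p = 0.0272), but 0.134 with GC offsets, and the call was lost without any 1 library other than Myc cKO replicate 3 (up to 0.101, without Twist cKO replicate 1). The remaining neighbours mostly lay 14 to 20 Mb from Myc and were lower. Plec, a cytoskeletal linker gene, had 270, 238 and 143 CPM against 365, 420 and 455 CPM (-0.93 ± 0.18, adjusted p = 0.0135 and 0.274), and Myh9, the heavy chain of non-muscle myosin, had 855, 773 and 673 CPM against 1022, 1391 and 1227 CPM (-0.66 ± 0.13, adjusted p = 0.0126 and 0.235). Both lost the call without Twist cKO replicate 2 or 3, with adjusted p up to 0.0633 for Plec and 0.0623 for Myh9. Scrib, a cell polarity gene, differed by -0.67 ± 0.13 (adjusted p = 0.0113 and 0.297), and Gga1, a clathrin adaptor gene, by -0.47 ± 0.08 (adjusted p = 0.00923 and 0.872). Scrib lost its call without Twist cKO replicate 3 (0.0561) or Myc cKO replicate 2. Emc2, a subunit of a membrane insertion complex, was higher (0.44 ± 0.09, adjusted p = 0.0209 and 0.229) and lost the call without 4 of the 6 libraries, Twist cKO replicates 1 and 3 and Myc cKO replicates 2 and 3 (up to 0.0975, without Twist cKO replicate 3).

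Of the 12 largest rises in Myc cKO kidneys, Syt14 came closest to the threshold after the offsets among genes away from chromosome 12. Syt14, a member of the synaptotagmin family of membrane trafficking proteins, had 11.6, 13.3 and 16.4 CPM in Myc cKO kidneys and 3.48, 5.76 and 3.70 CPM in Twist cKO kidneys (1.67 ± 0.29, adjusted p = 0.00768 and 0.0525), and it was called in all 6 fits without 1 library. WT UUO kidneys had 4.33 to 6.65 CPM and healthy kidneys, at 9.61 to 16.8 CPM, were nearer the Myc cKO kidneys. These levels, too, are without the offsets. Tatdn3, a putative nuclease gene, had 7.51, 8.87 and 9.64 CPM against 5.48, 4.81 and 5.19 CPM (0.75 ± 0.15, adjusted p = 0.0130 and 0.0730). B2m, the light chain of MHC class I molecules, had 420, 499 and 463 CPM against 329, 230 and 232 CPM (0.81 ± 0.20, adjusted p = 0.0406 and 0.247). Adam23, a membrane protein that binds integrins, had 3.77, 8.78 and 10.2 CPM against 2.80, 2.86 and 2.42 CPM (1.49 ± 0.37, adjusted p = 0.0427 and 0.187). For each of these genes every Myc cKO kidney lay above every Twist cKO kidney. Anxa5, which binds phosphatidylserine on dying cells, differed by 0.75 ± 0.19, Sarnp, an mRNA export factor, by 0.92 ± 0.23, Strip2 by 0.82 ± 0.20 and the adaptor gene Gab3 by 0.81 ± 0.19. Their adjusted p lay between 0.0365 (Gab3) and 0.0463 (Sarnp), and between 0.152 (Anxa5) and 0.227 (Sarnp) with the offsets. Tatdn3, B2m, Adam23, Anxa5, Sarnp, Strip2 and Gab3 each lost the call without at least 2 of the 6 libraries, up to 0.0647 for Tatdn3 without Twist cKO replicate 2 and 0.168 for Anxa5 without Twist cKO replicate 3.

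Of the 12 largest falls, those outside chromosomes 7 and 12 include membrane proteins, a laminin chain and regulators of transcription and signalling. Islr2, a membrane protein with leucine-rich repeats, had 1.90, 3.11 and 3.30 CPM in Myc cKO kidneys and 9.45, 18.7 and 14.5 CPM in Twist cKO kidneys (-2.36 ± 0.43, adjusted p = 0.0103 and 0.0771). Twist cKO kidneys were the high group, since WT UUO kidneys had 6.45 to 6.72 CPM. Lama3, the alpha chain of an epithelial laminin, had 24.1, 9.85 and 10.1 CPM against 50.6, 79.8 and 57.0 CPM (-2.09 ± 0.42, adjusted p = 0.0168 and 0.0781). WT UUO kidneys (49.1 to 74.2 CPM) and Snail cKO kidneys (42.6 to 69.7 CPM) were near the Twist cKO level of Lama3, and its call was lost without Twist cKO replicate 2 or Myc cKO replicate 2 or 3 (up to 0.0708, without Myc cKO replicate 2). Il3ra, a chain of the interleukin-3 receptor, had 1.11, 0.897 and 0.582 CPM against 3.04, 2.49 and 3.16 CPM (-1.74 ± 0.30, adjusted p = 0.00749 and 0.123). Hic1, a transcriptional repressor, had 4.33, 4.67 and 2.48 CPM against 10.2, 8.36 and 9.63 CPM (-1.30 ± 0.21, adjusted p = 0.00580 and 0.233). Fam171a2 had 6.80, 5.39 and 4.76 CPM against 15.2, 11.9 and 12.3 CPM (-1.22 ± 0.18, adjusted p = 0.00426 and 0.187). Hic1, Il3ra, Islr2 and Fam171a2 were called in all 6 fits without 1 library. Dusp9, a phosphatase that inactivates MAP kinases (-1.51 ± 0.38, adjusted p = 0.0420 and 0.235), and Arhgef19, a guanine nucleotide exchange factor (-1.13 ± 0.28, adjusted p = 0.0411 and 0.358), were not: the adjusted p reached 0.153 for Dusp9 without Twist cKO replicate 1 and 0.157 for Arhgef19 without Twist cKO replicate 2.

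Genes that Myc is known to drive were described by lists chosen for their role. Of 20 ribosome biogenesis genes, 4 were lower in Myc cKO kidneys and 0 higher, against 2.55% lower of all genes tested, and the list's median log2 difference was 0.06, and -0.03 with the offsets (0.02 and 0.03 over all genes tested). Bop1, a factor for the large ribosomal subunit, had 14.3, 11.9 and 12.9 CPM in Myc cKO kidneys and 18.7, 19.4 and 19.1 CPM in Twist cKO kidneys (-0.55 ± 0.09, adjusted p = 0.00689 and 0.273). Nop2, an rRNA methyltransferase, had 16.6, 16.2 and 14.3 CPM against 22.5, 20.9 and 20.1 CPM (-0.43 ± 0.10, adjusted p = 0.0365 and 0.406). Rrp12, an export factor for ribosomal subunits, differed by -0.45 ± 0.11 (adjusted p = 0.0452 and 0.377), and Mybbp1a, a nucleolar protein, by -0.35 ± 0.09 (adjusted p = 0.0438 and 0.326). Npm1, the abundant nucleolar chaperone, lay on the other side with 250, 249 and 258 CPM against 199, 211 and 219 CPM, without overlap, and was not called (0.27 ± 0.07, adjusted p = 0.0603 and 0.591). Bop1 was called in all 6 fits without 1 library, Nop2 and Rrp12 in none of them (up to 0.138 without Twist cKO replicate 1 and 0.163 without Myc cKO replicate 2), and Mybbp1a reached 0.185 without Twist cKO replicate 3. The GC content of Bop1 is 58.2%, and the 4 called genes lost the call with the offsets.

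Of 16 genes of nucleotide and polyamine synthesis, 1 was lower, where 2.55% of all genes tested were. Gart, an enzyme of purine synthesis, had 20.7, 19.3 and 19.8 CPM in Myc cKO kidneys and 27.1, 29.8 and 25.99 CPM in Twist cKO kidneys (-0.47 ± 0.09, adjusted p = 0.0136 and 0.109). It lost the call without Twist cKO replicate 2 (0.0694) or Myc cKO replicate 2. Cad, the first enzyme of pyrimidine synthesis, had 19.1, 16.9 and 11.5 CPM against 22.9, 25.5 and 26.02 CPM, without overlap, and missed the threshold (-0.65 ± 0.17, adjusted p = 0.0567 and 0.414). In the list, 6 genes lay entirely below and 1 entirely above the Twist cKO kidneys, where 12.3% and 10.2% of all genes tested did so. The list's median was -0.006, and -0.03 with the offsets, and 8 of the 16 genes had a positive difference. The letters CACGTG, which read the same on both strands, were searched in the 250 bases before the first listed start of each gene in RefSeq (GRCm38.p6). They were found for 972 of 12636 tested genes with such a sequence (7.69%), for 29 of 414 genes lower in Myc cKO kidneys (7.00%) and for 10 of 61 higher genes (16.4%). In the lists they were found for 6 of 13 nucleotide and polyamine genes (46.2%) and 1 of 16 ribosome biogenesis genes (6.25%). The called genes Bop1 and Rrp12 had no such sequence, so they were not searched, and the called genes Mybbp1a and Gart had no match. The ribosome biogenesis gene with a match is Nop2, also called. It is shown here at chr6:125131633-125131882 on the + strand with CACGTG in capitals, 60 bases before the start.
Nop2: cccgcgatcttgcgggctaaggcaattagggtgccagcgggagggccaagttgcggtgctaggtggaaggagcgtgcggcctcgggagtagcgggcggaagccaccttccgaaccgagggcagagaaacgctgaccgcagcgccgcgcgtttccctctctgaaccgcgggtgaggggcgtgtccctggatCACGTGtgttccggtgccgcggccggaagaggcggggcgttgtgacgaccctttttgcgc
A match is a description of the sequence and does not show that Myc binds there.

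The 13 genes of the Myc network itself held 0 calls, against 2.99% of all genes tested. Mnt, a repressor that competes with Myc for Max, had 12.2, 13.1 and 16.2 CPM in Myc cKO kidneys and 17.8, 20.9 and 23.4 CPM in Twist cKO kidneys (-0.58 ± 0.15, adjusted p = 0.0549 and 0.608). Mycn overlapped between the groups (-0.46 ± 0.30, adjusted p = 0.473). Of 19 glycolysis genes 1 was called, where 2.99% of all genes tested were. Hk1, a hexokinase, had 56.1, 74.0 and 82.1 CPM against 106, 120 and 125 CPM (-0.73 ± 0.17, adjusted p = 0.0340 and 0.125), and it lost the call without any 1 library other than Myc cKO replicate 3 (up to 0.122, without Twist cKO replicate 3). Pfkl, a phosphofructokinase, had 23.1, 28.0 and 41.0 CPM against 45.2, 43.8 and 43.4 CPM (-0.52 ± 0.24, adjusted p = 0.263). The glycolysis list's median was -0.17, and -0.06 with the offsets.

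Mitochondrial and proximal tubule genes, where GGT-Cre acts, held 0 calls, against 2.99% of all genes tested. Medians were 0.08 for 21 fatty acid oxidation genes, 0.11 for 19 citric acid cycle genes, 0.18 for 18 nuclear genes of oxidative phosphorylation and 0.42 for 13 mitochondrially encoded mRNAs (0.24 with the GC offsets). Without Myc cKO replicate 3 the median was -0.05 for the citric acid cycle, -0.03 for the nuclear oxidative phosphorylation genes and -0.16 for proximal tubule metabolism. All 13 mitochondrially encoded mRNAs had a positive difference, led by mt-Nd2 with 713, 876 and 1203 CPM in Myc cKO kidneys and 449, 742 and 658 CPM in Twist cKO kidneys (0.59 ± 0.23, adjusted p = 0.192). The highest values were those of Myc cKO replicate 3. Among 20 proximal tubule transport genes (median 0.08), Slc13a1, a sulphate transporter, had 801, 703 and 873 CPM against 421, 419 and 349 CPM. The groups did not overlap, and the difference missed the threshold (0.998 ± 0.26, adjusted p = 0.0549 and 0.260). For the metabolic genes of the proximal tubule the median was 0.35, and G6pc, which releases glucose, had 33.1, 55.3 and 275 CPM against 53.6, 102 and 14.0 CPM, so the groups overlapped and 1 kidney carried the difference. The loop and distal tubule list had a median of -0.53 over 11 genes: Umod, the gene of uromodulin, had 536, 987 and 1252 CPM against 1770.5, 2032 and 1440.2 CPM (-0.92 ± 0.36, adjusted p = 0.193), and Slc12a1, the sodium, potassium and chloride transporter, had 152, 179 and 361 CPM against 376, 388 and 418 CPM (-0.77 ± 0.32, adjusted p = 0.228). Neither overlapped between the groups. Of 17 tubular injury genes 0 were called, and Havcr1 (0.09 ± 0.99, adjusted p = 0.979) and Lcn2 (0.02 ± 0.23, adjusted p = 0.984) had intervals from -2.02 to 2.20 and from -0.48 to 0.51.

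Endothelial genes, the compartment of the Twist deletion, held 2 calls among 21, both lower in Myc cKO kidneys, where 2.55% of all genes tested were lower. Eng, the endothelial co-receptor for TGF-beta, had 58.7, 55.8 and 57.9 CPM in Myc cKO kidneys and 83.7, 94.0 and 87.3 CPM in Twist cKO kidneys (-0.62 ± 0.08, adjusted p = 0.00167). It was called in all 6 fits without 1 library, and its adjusted p was 0.176 with GC offsets. Healthy kidneys had 57.8 to 66.7 CPM of Eng, near the Myc cKO level, and WT UUO kidneys 77.1 to 86.2 CPM, near the Twist cKO level. These levels are without the offsets, and the healthy and Myc cKO libraries were those with negative slopes on GC content. Plvap, the protein of fenestral diaphragms, had 50.7, 50.9 and 60.3 CPM against 76.3, 80.2 and 71.6 CPM (-0.50 ± 0.10, adjusted p = 0.0200 and 0.676), and it lost the call without Twist cKO replicate 1 or 2 or Myc cKO replicate 1 or 2 (up to 0.0835, without Twist cKO replicate 2). Emcn, a sialomucin of capillaries, lay the other way without overlap and was not called (51.2, 57.5 and 60.3 CPM against 49.8, 38.8 and 40.8 CPM, adjusted p = 0.139). Cdh5, the gene whose promoter drives the Cre of the Twist line, had 44.8, 45.0 and 41.6 CPM against 50.5, 49.1 and 44.7 CPM (-0.14 ± 0.13, adjusted p = 0.668). Pecam1, an adhesion molecule of endothelium, had 71.5, 70.4 and 67.9 CPM against 70.4, 59.2 and 59.4 CPM (0.15 ± 0.13, adjusted p = 0.604). The 95% intervals were -0.42 to 0.15 for Cdh5 and -0.12 to 0.42 for Pecam1. The list's median was -0.15, and 0.07 with the offsets.

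Oxygen-related genes held 0 calls among 17, where 2.99% of all genes tested were called (median -0.02, and 0.10 with the offsets). Vegfa, the main growth factor of vessels, had 64.3, 70.6 and 92.2 CPM in Myc cKO kidneys and 78.1, 79.2 and 76.9 CPM in Twist cKO kidneys, a difference of -0.04 with a 95% interval of -0.38 to 0.30. Hif1a, the oxygen-sensing transcription factor, had 107, 130 and 139 CPM against 128, 129 and 125 CPM (-0.02, interval -0.42 to 0.38). Kdm3a, a histone demethylase induced by low oxygen, had 56.2, 57.0 and 74.5 CPM against 50.4, 48.8 and 50.2 CPM and was not called (adjusted p = 0.0749 and 0.354).

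In fibrosis-related lists the calls were few and lower in Myc cKO kidneys, against 2.55% lower of all genes tested. They were 2 of 15 genes of TGF-beta signalling, 1 of 15 myofibroblast and pericyte genes and 0 of 27 extracellular matrix genes. Of 15 genes of TGF-beta signalling, Smad7, the inhibitor of the pathway, had 25.9, 27.0 and 21.2 CPM in Myc cKO kidneys and 32.1, 36.5 and 37.3 CPM in Twist cKO kidneys (-0.52 ± 0.10, adjusted p = 0.0135 and 0.547). Smad3, its transcriptional effector, had 68.2, 63.5 and 45.0 CPM against 80.7, 81.0 and 90.2 CPM (-0.51 ± 0.13, adjusted p = 0.0431 and 0.371). Tgfb1, the ligand, had 13.0, 12.9 and 7.24 CPM against 17.7, 16.1 and 19.6 CPM and missed the threshold (-0.69 ± 0.19, adjusted p = 0.0636 and 0.681). An inhibitor, an effector and a ligand thus lay on the same side. Of 15 myofibroblast and pericyte genes 1 was called, the pericyte receptor gene Notch3 (29.95, 26.8 and 22.6 CPM against 36.9, 36.4 and 40.4 CPM, adjusted p = 0.0170 and 0.643), and the list's median was 0.08. Smad7, Smad3 and Notch3 lost the call without Twist cKO replicate 3, at 0.0656, 0.162 and 0.0884. Smad7 also lost it without Twist cKO replicate 2, and Smad3 and Notch3 without other libraries of both groups. Of 27 extracellular matrix genes 0 were called (median -0.14, and 0.005 with the offsets). Col1a1, the main fibrillar collagen, had 569, 249 and 97.5 CPM against 288, 473 and 428 CPM (-0.38 ± 0.50, adjusted p = 0.764), and Acta2, smooth muscle actin, had 160, 42.5 and 30.9 CPM against 43.0, 56.5 and 44.4 CPM (0.70 ± 0.49, adjusted p = 0.512). Myc cKO replicate 1 was high and replicate 3 low for both, so the Myc cKO group spread more widely than the Twist cKO group. Without replicate 1 the Acta2 difference was -0.39. The interval for Col1a1, -1.44 to 0.69, leaves room for differences of more than 2-fold.

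**Figure D5:**
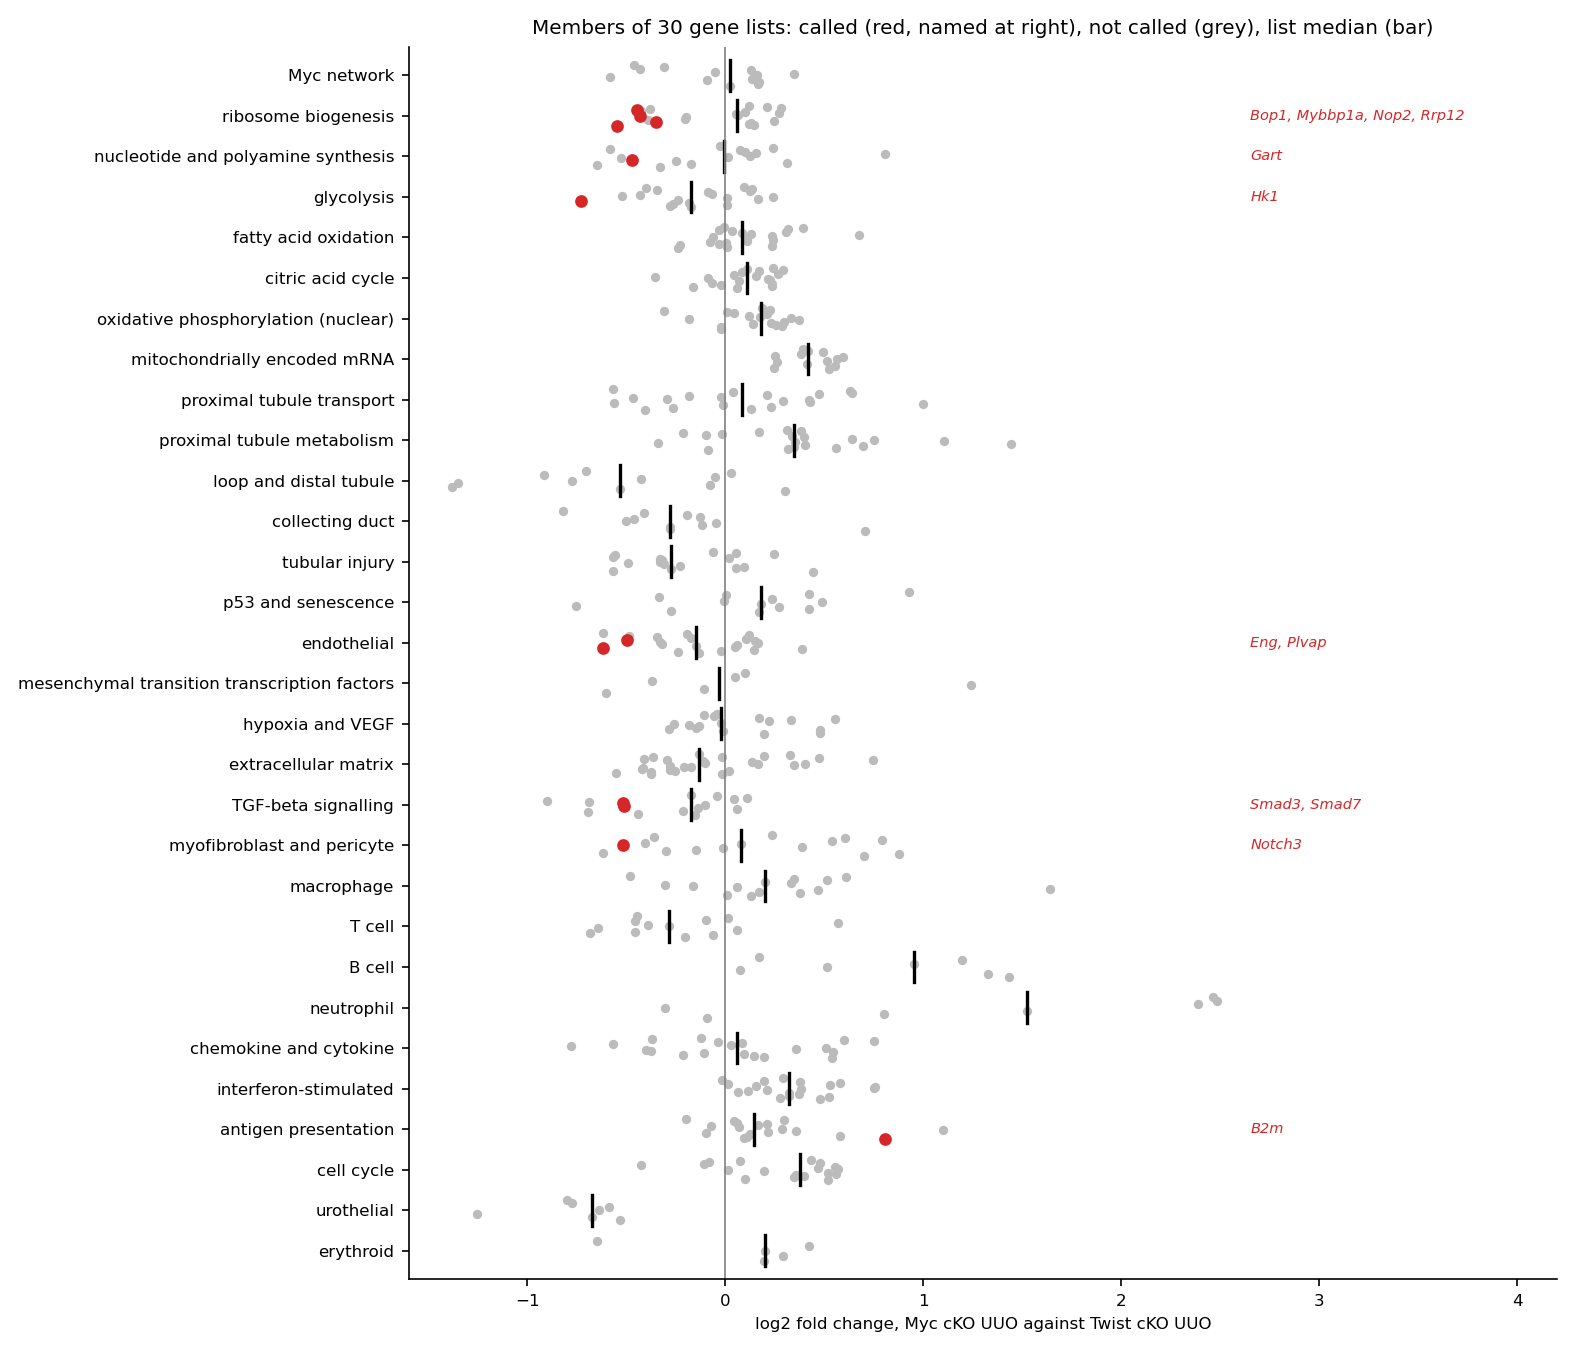
Log2 difference (Myc cKO minus Twist cKO) of the tested members of 30 gene lists on the x axis, 1 list per line, with called members in red and named at the right, other members in grey and the list's median as a bar. Called members were few in every list, at most 4 in ribosome biogenesis, and B2m was the one called higher.

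Immune lists held 1 call, B2m, among 18 antigen presentation genes, against 0.442% higher of all genes tested. Of 20 interferon-stimulated genes 19 had a positive difference and 0 were called. The list's median was 0.32, and 0.26 with the offsets (0.02 and 0.03 over all genes tested). Mx2, an antiviral GTPase, had 5.08, 5.11 and 4.36 CPM in Myc cKO kidneys and 3.06, 2.09 and 3.46 CPM in Twist cKO kidneys (0.76 ± 0.39, adjusted p = 0.342), and Ifit2 had 41.6, 36.5 and 40.5 CPM against 35.2, 27.6 and 32.005 CPM (0.32 ± 0.13, adjusted p = 0.205). The groups did not overlap in 7 of these 20 genes, all higher, where 10.2% of genes tested lay higher without overlap. Among 15 macrophage genes (median 0.20), Mrc1, the mannose receptor, had 141, 126 and 118 CPM against 79.7, 96.5 and 76.9 CPM without overlap and was not called (0.61 ± 0.20, adjusted p = 0.121). Neutrophil markers had a median of 1.52 over 7 genes, and 1 kidney was high: S100a8 had 0.777, 1.597 and 11.1 CPM against 1.19, 0.682 and 0.526 CPM. The neutrophil list summed to 8.27, 10.7 and 41.4 CPM in Myc cKO kidneys and to 7.85 to 9.05 CPM in Twist cKO kidneys. Of 18 cell cycle genes 15 had a positive difference (median 0.37, and 0.28 with the offsets) and 0 were called. Cdk1, the mitotic kinase, had 8.45, 6.28 and 6.13 CPM against 5.01, 4.31 and 4.75 CPM (0.57 ± 0.26, adjusted p = 0.271).

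Against 2.99% of all genes tested, the lists not described so far held 0 calls. Their medians were -0.28 for 11 collecting duct genes, 0.18 for 13 p53 and senescence genes, -0.03 for 6 transcription factors of mesenchymal transition, -0.29 for 13 T cell genes, 0.95 for 7 B cell genes, 0.06 for 20 chemokine and cytokine genes, 0.20 for 5 erythroid genes, 0.75 for 5 sex chromosome genes and -0.08 for 9 genes with a sex bias in mouse kidney. With the GC offsets no member of any list described here was called.

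Markers of tissue around the kidney differed between single kidneys. The 8 adipocyte genes summed to 128, 26.4 and 178 CPM in Myc cKO kidneys and to 23.65 to 31.3 CPM in Twist cKO kidneys. Adipoq, a hormone of fat cells, had 538, 1 and 864 reads in Myc cKO kidneys and 0, 14 and 1 in Twist cKO kidneys. Replicates 1 and 3 were high for the list, and the sum of replicate 2 lay within the Twist cKO range. Among the 8 genes, 0, 2 and 0 were at 0 reads in the Myc cKO kidneys and 4, 1 and 1 in the Twist cKO kidneys. The list's median difference was 5.66 with 0 of 8 called, where 2.99% of all genes tested were. The 7 urothelial genes, of the lining of the renal pelvis, summed to 64.0, 15.5 and 1.96 CPM in Myc cKO kidneys and to 24.5 to 60.8 CPM in Twist cKO kidneys. What part fat, neutrophils or pelvis in the sample had in the other differences was not tested.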

How the data were processed

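Whole-kidney RNA of 18 mouse kidneys was measured by stranded whole-transcriptome RNA-seq, read as paired reads of 75 bases per the labels' protocols. The authors deposited raw counts per gene symbol, made, per the submitters' processing notes, with bcl2fastq 1.8.4, HTSeq and the genome build mm10. The notes also name DESeq2. Aligner, annotation and strand setting: not given in the sources used here. A second deposited table, of normalized signal, was left aside. Of 24 columns, 18 matched a sample by name and 6 entered no step. Replicates are numbered in record order, and the labels do not say that they are separate animals. Both compared groups held kidneys with more Ddx3y than Xist reads and kidneys with the reverse. The kidneys of a group therefore did not all come from the same animal, but whether each came from its own is not given. The p-values reflect only how these samples spread, which may in part be technical.

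Counts were fitted in R 4.3.3 with edgeR 4.0.16: filterByExpr (21050 of 31787 symbols), trimmed mean of M-values, a robust quasi-likelihood fit of 6 group means to all 18 libraries (12 residual degrees of freedom), a two-sided test of Myc cKO UUO minus Twist cKO UUO, Benjamini-Hochberg adjustment over all genes tested, and a threshold of 0.05. Differences are log2 with their SE. Positions, transcript GC content and length (median over a gene's coding transcripts) came from GENCODE M21 on mm10, with a value for 98.0% of the genes tested. GC offsets were a loess curve per library (span 0.5, genes above an average log2 CPM of 1). The steps were tested on simulated data.

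The 34 gene lists and the comparison were chosen with earlier results of these data known; 1 list with a called member is not reported here. Named are Myc, Twist1 and Snai1; the 12 genes that rose most and the 12 that fell most, taken from calls without overlap and without a predicted name whose mean log2 CPM was 1 or more; up to 4 members per list with the smallest p; up to 10 called genes within 20 Mb of Twist1 or Myc; and 10 preset genes. All genes called with the offsets are also named. Alternatives were other scalings and count filters, DESeq2 1.42.0, limma 3.58.1 voom, only the 6 or the 12 obstructed libraries, a 2-fold minimum, no mitochondrially encoded genes, sex as a covariate, and leaving out each library. The offsets and their combinations were added after the data were seen.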

Additional observations from a re-analysis of the deposited data

How the results depend on the processing

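Against 630 calls (93 higher, 537 lower), DESeq2 called 1624 (431 and 1193), the 6 compared libraries alone 15 (9 and 6), a 2-fold minimum 6 (3 and 3), GC offsets 20 (9 and 11) and GC offsets over the 12 obstructed kidneys 19 (7 and 12). Higher calls were 178 with upper-quartile scaling, 52 without a count filter and 172 with a minimum of 1 CPM in 3 libraries. With sex as a covariate 782 genes were called (117 higher, 665 lower), and 595 of them were among the 630. Dusp9, Anxa5 and Smad3 then lost the call (edgeR adjusted p = 0.05365, 0.05167 and 0.05065). Without 1 library, 194 to 515 genes were called (24 to 82 higher, 170 to 433 lower), and with GC offsets 4 to 12 (2 to 7 higher, 2 to 6 lower; 8 in all without Twist cKO replicate 2 or 3). Near Twist1, 12 calls became 2 with the 6 libraries alone, 2 with the 2-fold minimum, 3 within 10 Mb, 5 with GC offsets over 12 kidneys, and 2 to 5 with GC offsets and 1 library left out. Near Myc, 15 calls became 30 with DESeq2, 0 with the 6 libraries alone, the 2-fold minimum or any GC offsets, and 2 within 10 Mb; without 1 library they were 2 to 20 (fewest without Twist cKO replicate 3, most without Myc cKO replicate 3). The cause of these shifts was not tested, apart from the fewer libraries or narrower window. Twist1 and Myc stayed uncalled under every alternative run; Myc was at 0.02 and 0.01 with GC offsets and without Twist cKO or Myc cKO replicate 3. No called gene named in the text changed direction. Medians of lists did: with GC offsets ribosome biogenesis went to -0.03, endothelial to 0.07, extracellular matrix to 0.005, hypoxia and VEGF to 0.10 and chemokine and cytokine to -0.006. No paired analysis was possible because the labels carry no replicate numbers. Genes with few reads in a group are limited by counting error.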
